A study of Mus musculus with 15 samples.

Results

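Mitochondrial ribosomal protein genes were taken as the protein-coding genes of the deposited count table whose symbol is Mrpl or Mrps followed by a number and at most 1 letter. This choice by name found 78 of 39331 genes, 49 with an Mrpl symbol, named for the large subunit, and 29 with an Mrps symbol, named for the small subunit. Among the 29, for example, Mrps18a is known to sit in the large subunit and Mrps36 in another complex, so groups by symbol are not exactly the subunits. Levels were measured by sequencing of polyadenylated RNA in left ventricles of C57BL/6 mice, all after experimental myocardial infarction. Adult hearts that received adult T cells gave 4 libraries (AH_T, numbers 1 to 4) and adult hearts without transfer gave 3 (AH_C, 5 to 7). Neonatal hearts that received adult T cells gave 4 libraries (NH_T, numbers 1, 2, 4 and 5) and neonatal hearts without transfer gave 4 (NH_C, 6 to 9). For neonatal hearts the labels place collection at 36 h after the infarct, while the time in adult hearts, the ages in days and the dose of T cells are not given. Comparisons of adult with neonatal hearts are called age comparisons here. A difference in time after the infarct cannot be told apart from age in them. No uninjured heart is among the groups, so every comparison is between infarcted ventricles. The labels do not say whether each library came from its own animal, and p-values therefore measure the spread between these libraries.

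Mitochondria keep their own ribosome, which translates the few proteins encoded by mitochondrial DNA, core parts of the respiratory chain and of ATP synthase. Its RNAs come from mitochondrial DNA, whereas all of its proteins are encoded in the nucleus, made in the cytosol and imported. The small subunit holds the decoding centre and binds the messenger RNA, and the large subunit joins amino acids and passes the chain through a tunnel towards the inner membrane. Heart muscle is rich in mitochondria, and mutations in several of these genes in humans cause disease of the heart muscle.

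Promoters of 69 of the 78 genes were matched in a RefSeq table of mouse promoters (GRCm38.p6, 250 bases before to 50 bases after the start). The members Mrpl4, Mrpl13, Mrpl15, Mrpl19, Mrpl38, Mrpl54, Mrps28, Mrps34 and Mrps35 were not matched. Short motifs of factors known to bind promoters of mitochondrial genes were searched on both strands. The core of the NRF1 motif was found in 13 members (18.8%), against 7.17% of 17519 protein-coding genes. The ETS motif CCGGAAG, which GABPA can bind, was found in 26 members (37.7%), against 12.9% of those genes, and the YY1 motif AAGATGGCG in 8 members (11.6%), against 2.14%. A TATAAA box was found in 5 members (7.25%), against 14.8%. The full NRF1 repeat, which contains the core, stood in 1 member (1.45%), against 0.245%. These are matches of letters and were not tested as sites. The 17519 genes include genes that did not pass the filter on low counts given below, whereas all 78 members passed it. Shares over the tested genes alone are not given here. The 250 bases before the start are given for 4 genes that the results turn on, 5′ to 3′ on the strand of the gene, with the matches in capitals. Mrps21 and Mrps18a were higher in adult hearts and after T cell transfer in adults, Mrpl28 had the greatest T cell difference in adults, and Mrpl52 was the member that was lower in adult controls. They lie at chr3:95871515-95871764 (minus strand) for Mrps21, chr17:46110754-46111003 (plus strand) for Mrps18a, chr17:26123253-26123502 (plus strand) for Mrpl28 and chr14:54426659-54426908 (plus strand) for Mrpl52. The capitals mark the NRF1 core, read on the opposite strand and starting 91 bases before the start of Mrps21, and the ETS motif in Mrps18a and, on the opposite strand, in Mrpl52. No searched motif of these factors stands in the 250 bases of Mrpl28.
Mrps21: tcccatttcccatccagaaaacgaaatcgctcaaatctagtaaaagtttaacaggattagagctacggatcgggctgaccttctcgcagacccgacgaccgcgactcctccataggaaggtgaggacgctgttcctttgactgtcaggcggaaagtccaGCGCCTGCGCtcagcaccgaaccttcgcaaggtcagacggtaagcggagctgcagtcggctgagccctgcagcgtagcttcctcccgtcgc
Mrps18a: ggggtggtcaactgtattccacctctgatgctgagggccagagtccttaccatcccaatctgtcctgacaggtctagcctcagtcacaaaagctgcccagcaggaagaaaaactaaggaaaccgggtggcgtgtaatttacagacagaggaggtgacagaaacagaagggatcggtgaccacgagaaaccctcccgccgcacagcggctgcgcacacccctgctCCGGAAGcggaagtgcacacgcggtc
Mrpl28: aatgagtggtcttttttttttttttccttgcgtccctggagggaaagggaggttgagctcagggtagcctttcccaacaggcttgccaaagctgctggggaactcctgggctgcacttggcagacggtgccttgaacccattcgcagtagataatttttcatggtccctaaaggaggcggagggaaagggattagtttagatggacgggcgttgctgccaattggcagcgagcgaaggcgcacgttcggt
Mrpl52: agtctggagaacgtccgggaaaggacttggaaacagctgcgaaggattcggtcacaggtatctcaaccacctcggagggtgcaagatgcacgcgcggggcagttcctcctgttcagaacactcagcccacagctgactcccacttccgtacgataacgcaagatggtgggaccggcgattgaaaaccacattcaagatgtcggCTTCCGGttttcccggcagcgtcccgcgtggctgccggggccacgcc

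Total counts per library ran between 21871617 and 34302786, and 3 counts, the limit that a count of 0 allows, equalled 0.0875 to 0.137 CPM. CPM is the count scaled to a common library size, after TMM scaling. The limit above and the sums of cell type markers were instead scaled to total counts alone, without TMM. TMM factors lay between 0.884 and 0.970 in adult libraries and between 1.02 and 1.09 in neonatal ones. TMM scaling would therefore raise adult marker sums relative to neonatal ones. All 78 members passed the filter on low counts, as did 16437 of all genes. Markers of ventricular cardiomyocytes, 8 of 8 in the table, summed to 59348 to 61967 CPM in AH_T, 48365 to 52138 in AH_C, 42415 to 51490 in NH_T and 47800.2 to 50087 in NH_C, and no list of cell type markers was at 0 in every library. Macrophage markers summed to 95.7 to 130.5 CPM in AH_T, 102.0 to 140.0 in AH_C, 372.5 to 532.4 in NH_T and 137.5 to 479.1 in NH_C. Markers of dividing cells summed to 202.2 to 273.8 CPM in AH_T, 244.0 to 294.3 in AH_C, 392.1 to 431.0 in NH_T and 394.5 to 464.6 in NH_C. Both sums were lower in adults than in neonates, apart from an overlap of the macrophage sums of AH_C and NH_C, while endothelial and mural sums were higher. Endothelial markers, 5 of 5 called higher in both age comparisons, summed to 1140 to 1320.1 CPM in AH_T, 1157 to 1276 in AH_C, 893 to 1035 in NH_T and 964 to 989 in NH_C. Mural markers summed to 754 to 883 CPM in AH_T, 815 to 900.2 in AH_C, 467 to 582 in NH_T and 477 to 518 in NH_C. The 4 mural markers were split, with 2 called higher and 1 called lower in adults in both age comparisons. Markers of red blood cells summed to 2793 to 3816 CPM in AH_T, 2154 to 2360 in AH_C, 1002 to 1698 in NH_T and 699 to 1924 in NH_C. The part of these sums in the results was not tested. In whole ventricles, fewer cells of a type and less RNA per cell cannot be told apart.

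Summed over the 78 genes, the level was highest in adult recipients. It averaged 5247 ± 365 CPM in AH_T and 4395 ± 242 CPM in AH_C, against 3860.0 ± 299 CPM in NH_T and 3950.2 ± 310.0 CPM in NH_C (SD, n = 4, 3, 4 and 4). The libraries of AH_T lay between 4950.2 and 5767 CPM and did not overlap those of AH_C, between 4117 and 4557 CPM, nor those of either neonatal group, which reached at most 4316 CPM. AH_C overlapped both neonatal groups. The ratio of summed CPM of the Mrpl genes to that of the Mrps genes lay between 2.18 and 2.25 in every library. Few libraries held most of the extremes: AH_T2 was the highest of the 15 libraries for 63 of 78 members and AH_T4 for 11, while NH_T2 was the lowest for 40 and NH_C9 for 19. The same libraries also had the strongest transcript length trends, given below, and the part of these trends in the sums was not tested. Mitochondrially encoded transcripts, which are not among the 78 genes, took 12.6% to 17.6% of counts in AH_T, 18.0% to 21.4% in AH_C, 10.9% to 13.7% in NH_T and 11.4% to 16.0% in NH_C.

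**Figure D1:**
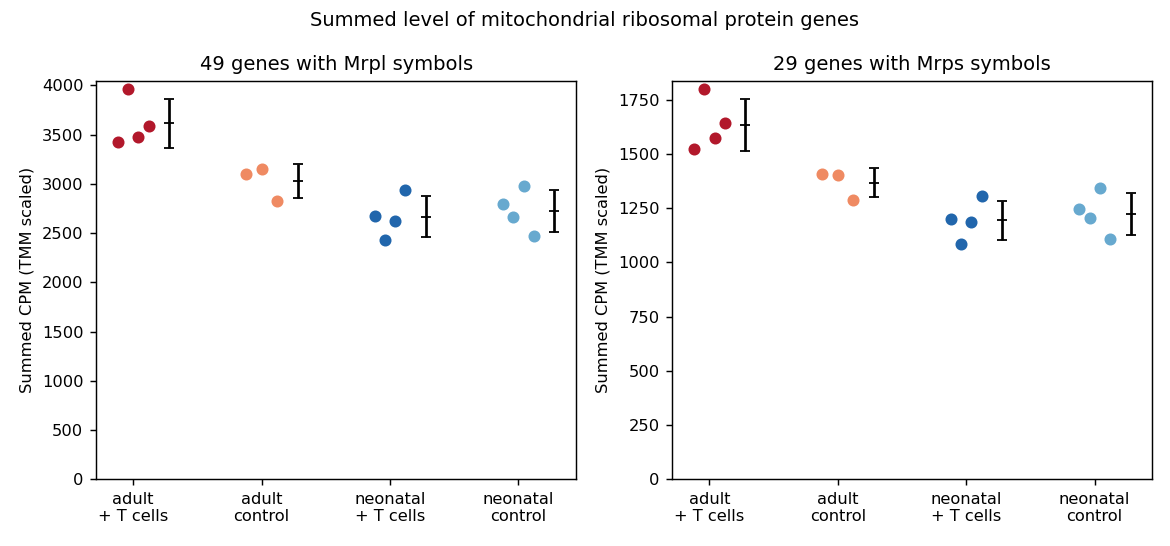
Summed level of the 49 genes with Mrpl symbols and the 29 genes with Mrps symbols in CPM (TMM scaled), one point per library, with mean ± SD beside each group. Both panels show the same order, with the 4 adult recipients above every other library.

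Per kilobase of transcript, the members spanned a wide range. The longest protein-coding transcript of each gene in GENCODE M21 was used, with a median of 1327.5 bases over the members (463 to 7300), against 3122 bases over 14493 tested genes with a length. Mean levels over the 15 libraries were highest for Mrpl42 with 290.1 CPM per kb, Mrpl12 with 196.7, Mrpl52 with 135.8, Mrpl54 with 117.6 and Mrps21 with 109.6 CPM per kb. Mrpl12 is the stalk protein that contacts translation factors. They were lowest for Mrps25 with 5.16, Mrpl17 with 5.64, Mrpl47 with 6.61, Mrpl19 with 7.29 and Mrpl1 with 8.48 CPM per kb. Since only the longest transcript was used, a gene whose shorter transcript dominates has its level per kb understated.

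Between adult and neonatal controls, AH_C against NH_C, which asks how infarcted hearts of both ages differ without transfer, a minority of the genes was higher in adults. Of 78 members, 63 had a positive log2 fold change, 19 were higher (24.4%) and 1 was lower at an adjusted p below 0.05 (edgeR's quasi-likelihood test, Benjamini-Hochberg over all genes). Over all tested genes, 15.6% were higher, 15.4% lower and 30.9% called in either direction. The share of members called higher was thus above the background and the share called in either direction was below it. The members' median log2 fold change was 0.15, against -0.02 over all genes. Groups did not overlap for 22 members that were higher in adults and 2 that were lower, beside 17.7% and 16.9% of all genes. The largest rises were those of Mrpl55 (0.45), Mrpl34 (0.45), Mrps24 (0.40), Mrpl14 (0.38), Mrps12 (0.38), Mrps18a (0.34), Mrps34 (0.33), Mrpl4 (0.32), Mrps21 (0.31), Mrpl42 (0.31), Mrpl37 (0.30) and Mrpl10 (0.28), all on the log2 scale. Mrps12 forms part of the decoding centre, Mrpl14 lies at the interface of the subunits and Mrpl10 is the base of the stalk. The count of 19 fell to 10 without AH_C5, without AH_C6 or without NH_C9, and was 29 without NH_C8. The shares of all genes called in these fits are not given here, and those above do not apply to them.

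Mrpl34, a large subunit protein (gene ID 94065, chromosome 8, 71464926 to 71465753, plus strand), shows the pattern of these members. It had 60.9, 64.3 and 56.4 CPM in AH_C5 to AH_C7, against 43.9, 42.4, 50.9 and 40.0 CPM in NH_C6 to NH_C9. All 3 adult libraries lay above all 4 neonatal ones. The log2 fold change was 0.45 ± 0.10 (SE), with an adjusted p of 0.00221 by edgeR's quasi-likelihood test with Benjamini-Hochberg adjustment. Mrps24, a small subunit protein (gene ID 64660, chromosome 11, 5703982 to 5707701, minus strand), had 59.2, 58.4 and 58.1 CPM in AH_C5 to AH_C7, against 46.0, 41.0, 50.8 and 39.4 CPM in NH_C6 to NH_C9. These groups did not overlap either, and the log2 fold change was 0.40 ± 0.10 (SE; edgeR adjusted p = 0.00731).

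Mrpl52, a large subunit protein of mitochondria with no bacterial counterpart (gene ID 68836, chromosome 14, 54426909 to 54429750, plus strand), went the other way in controls. It had 51.8, 54.1 and 52.1 CPM in AH_C5 to AH_C7, against 70.4, 68.8, 63.9 and 60.4 CPM in NH_C6 to NH_C9. All adult controls lay below all neonatal controls. The log2 fold change was -0.32 ± 0.10 (SE; edgeR adjusted p = 0.0222), and the call was lost without AH_C5, without AH_C7, without NH_C6 or without NH_C7. Mrps6, the relative of bacterial S6 in the small subunit, had 24.4, 25.2 and 21.6 CPM in AH_C5 to AH_C7, against 27.4, 26.3, 29.6 and 25.8 CPM in NH_C6 to NH_C9. Its groups did not overlap, with a log2 fold change of -0.20 ± 0.09 (SE) that did not pass the threshold (edgeR adjusted p = 0.101). Exons of Mrps6 overlap those of Slc5a3 on the same strand, and reads of both genes may have been split between them. Mrps22 and Mrpl15 followed in the order of the lowest values with log2 fold changes of -0.09 and -0.08, which did not pass the threshold.

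**Figure D2:**
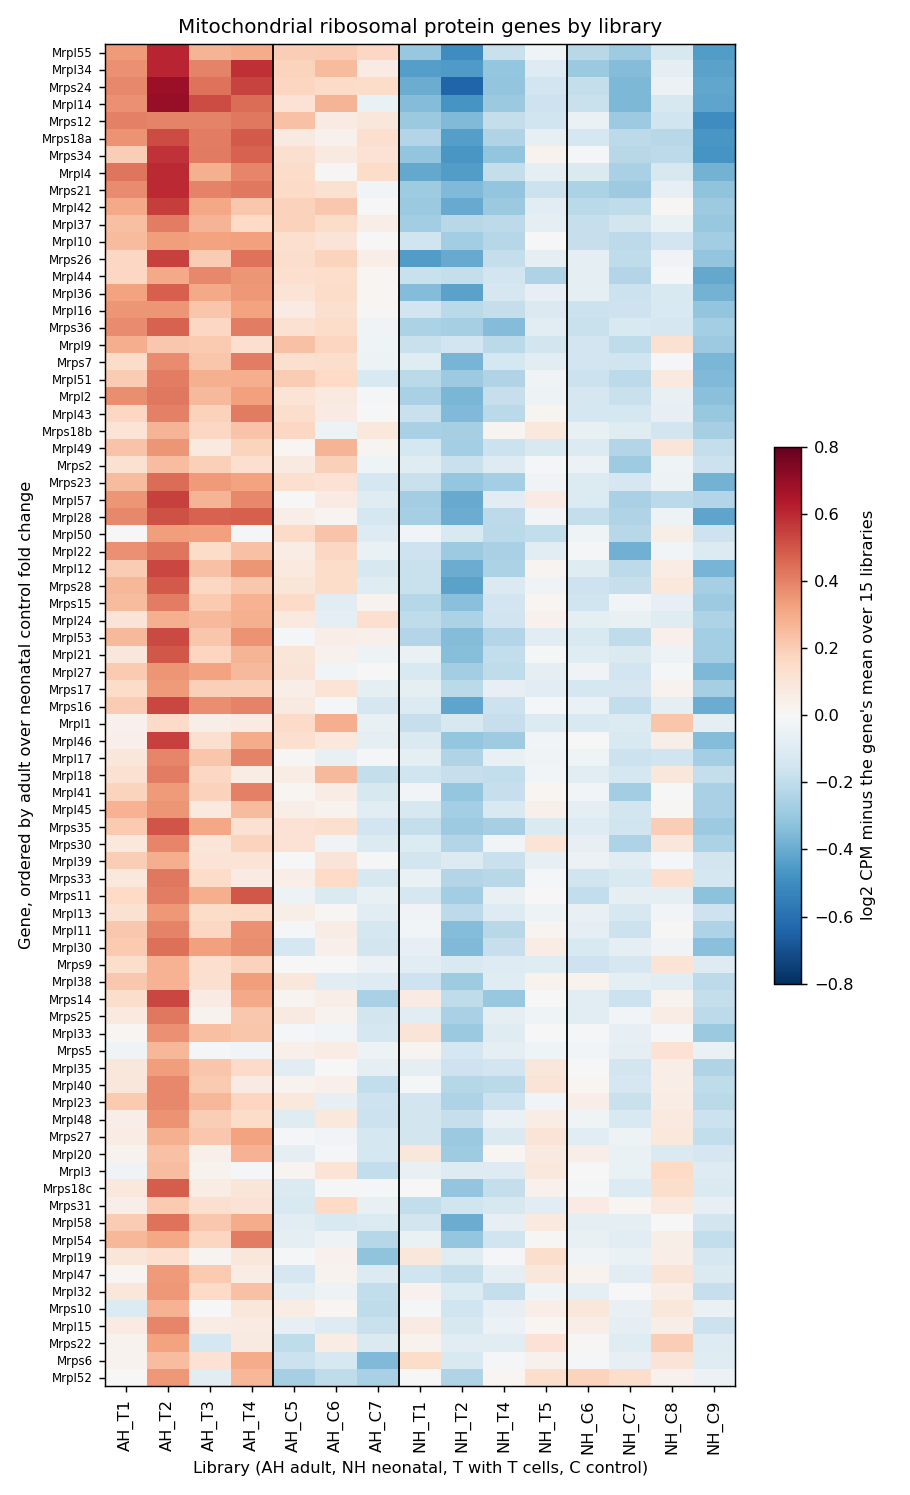
Levels of the 78 genes (rows) in the 15 libraries (columns), as log2 CPM minus the gene's mean over all libraries, with rows ordered by the adult over neonatal fold change in controls. AH_T2 is the darkest red column, the lowest rows hold Mrps22, Mrps6 and Mrpl52, and NH_T2 and NH_C9 are the bluest columns.

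Between recipients of both ages, AH_T against NH_T, the rise covered most of the genes. All 78 log2 fold changes were positive, 69 members were higher (88.5%) and 0 were lower by edgeR's quasi-likelihood test, against 23.8% of all genes higher, 26.9% lower and 50.7% called in either direction. The 9 members that did not pass the threshold had log2 fold changes of at least 0.06. The members' median log2 fold change was 0.41, against -0.03 over all genes, and 62 members had groups that did not overlap, beside 21.6% of all genes. Rises on the log2 scale were largest for Mrps24 (0.88), Mrpl14 (0.83), Mrpl34 (0.82), Mrps21 (0.73), Mrpl4 (0.70), Mrps18a (0.68), Mrps34 (0.68), Mrpl28 (0.68), Mrps12 (0.65), Mrpl55 (0.63), Mrps26 (0.62) and Mrpl42 (0.62).

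Mrps24 had 68.6, 84.5, 71.1 and 76.3 CPM in AH_T1 to AH_T4, against 39.8, 33.7, 42.2 and 47.3 CPM in NH_T1, NH_T2, NH_T4 and NH_T5. The lowest adult recipient stood well above the highest neonatal recipient, and the level was 1.84 times as high by the fit (log2 fold change 0.88 ± 0.10 SE; edgeR adjusted p = 1.44e-06). Mrps21, a small subunit protein (gene ID 66292, chromosome 3, 95862634 to 95871514, minus strand), had 67.8, 78.8, 68.9 and 70.1 CPM in AH_T1 to AH_T4, against 43.0, 40.9, 42.0 and 46.4 CPM in NH_T1, NH_T2, NH_T4 and NH_T5. Its spread within groups was small, and the log2 fold change was 0.73 ± 0.07 (SE; edgeR adjusted p = 5.86e-07), the smallest adjusted p among the members. Mrpl52 had 62.4, 79.2, 58.6 and 74.9 CPM in AH_T1 to AH_T4, against 62.1, 52.9, 63.0 and 68.7 CPM in NH_T1, NH_T2, NH_T4 and NH_T5. The groups overlapped, and the log2 fold change of 0.16 ± 0.09 (SE) did not pass the threshold (edgeR adjusted p = 0.172), and was -0.07 with the transcript length trend removed.

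**Figure D3:**
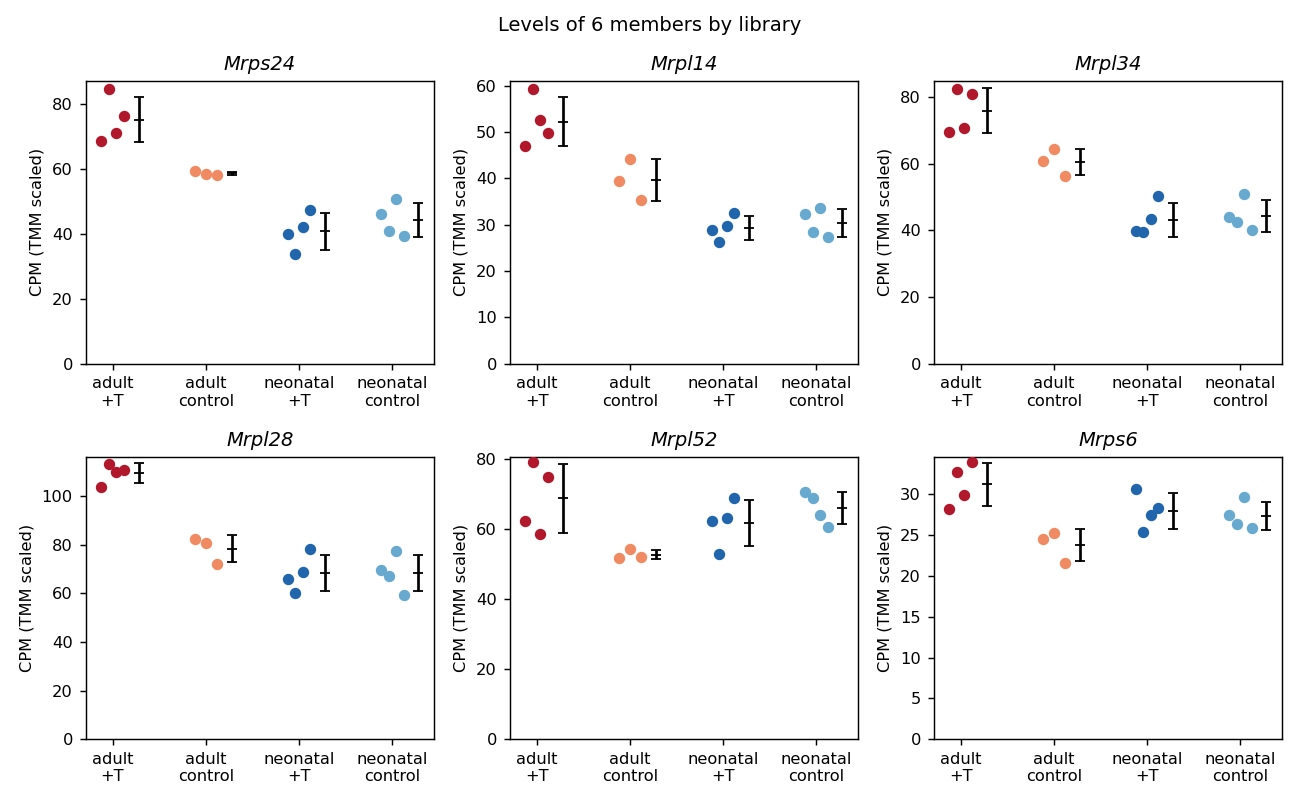
CPM (TMM scaled) of Mrps24, Mrpl14, Mrpl34, Mrpl28, Mrpl52 and Mrps6, one point per library with mean ± SD beside each group, adult recipients at the left. For Mrps24, Mrpl14, Mrpl34 and Mrpl28 the 4 adult recipients lie above all other libraries, whereas Mrpl52 and Mrps6 have their lowest points in adult controls.

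In adult hearts, recipients of T cells against controls, AH_T against AH_C, asks what the transferred cells change at the adult stage. Of 78 members, 77 had a positive log2 fold change, 24 were higher (30.8%) and 0 were lower by edgeR's quasi-likelihood test, against 3.53% of all genes higher, 5.03% lower and 8.55% called in either direction. The members' median log2 fold change was 0.24, against -0.00 over all genes, and 52 members had groups that did not overlap, beside 13.1% of all genes. Rises were largest for Mrpl28 (0.48), Mrpl30 (0.42), Mrps11 (0.42), Mrps16 (0.41), Mrpl54 (0.40), Mrpl58 (0.40), Mrpl57 (0.40), Mrpl14 (0.40), Mrps6 (0.39), Mrpl52 (0.38), Mrps21 (0.37) and Mrps18a (0.36) on the log2 scale. Mrpl58 is a peptidyl-tRNA hydrolase that can free stalled chains, and Mrps11 and Mrps16 belong to the conserved core of the small subunit. Mrpl1 had the one negative value, -0.06 ± 0.09 (SE; edgeR adjusted p = 0.724). The 24 calls depended on single libraries: none was left without AH_T4, without AH_C5 or without AH_C6, 4 were left without AH_T2 and 7 without AH_C7. Without AH_T4, AH_C5 or AH_C6 no gene of the whole table was called, while 77, 77 and 78 members had a positive value. The shares of all genes called without AH_T2 or without AH_C7 are not given here. The sum of ventricular cardiomyocyte markers given above was also higher in AH_T than in AH_C without overlap. Markers of T cells summed to 3.13 to 5.87 CPM in AH_T and 2.10 to 3.001 CPM in AH_C, and markers of red blood cells did not overlap either. The part of these sums in the result was not tested. This comparison shares AH_C with the age comparison in controls and AH_T with that in recipients.

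Mrpl28, a large subunit protein (gene ID 68611, chromosome 17, 26123503 to 26126613, plus strand), had 103.8, 113.1, 110.0 and 110.9 CPM in AH_T1 to AH_T4, against 82.4, 80.6 and 72.2 CPM in AH_C5 to AH_C7. All 4 recipients lay above all 3 controls. The log2 fold change was 0.48 ± 0.09 (SE; edgeR adjusted p = 0.0180), between 0.42 and 0.52 when any 1 library was left out, and the call was lost without AH_T4, AH_C5 or AH_C6. Mrpl52 had 62.4, 79.2, 58.6 and 74.9 CPM in AH_T1 to AH_T4, against 51.8, 54.1 and 52.1 CPM in AH_C5 to AH_C7. Recipients again lay above controls without overlap, but their own spread was wide, and the log2 fold change was 0.38 ± 0.10 (SE; edgeR adjusted p = 0.0315). Mrps6 had 28.1, 32.7, 29.8 and 33.9 CPM in AH_T1 to AH_T4, against 24.4, 25.2 and 21.6 CPM in AH_C5 to AH_C7, with a log2 fold change of 0.39 ± 0.09 (SE; edgeR adjusted p = 0.0212). Mrpl52 and Mrps6 were thus the lowest members in the age comparison of controls and among the 12 largest rises in this one, with the same 3 AH_C libraries in both.

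Transcript length moved with the T cell difference in adults. Over 14493 genes with a length, the Spearman correlation of length with the log2 fold change was -0.51 for AH_T against AH_C, -0.28 for AH_T against NH_T and -0.05 for AH_C against NH_C, so that shorter transcripts had the higher values after transfer in adults. Genes share libraries here and are not independent points. Within the 78 members the same correlations were -0.34, -0.38 and -0.26. The members are short, as given above. Within single libraries, length was also correlated with each gene's log2 CPM minus its mean over the libraries. Spearman values were -0.356 in AH_T2, -0.366 in AH_T4, 0.409 in NH_T2 and 0.380 in NH_C9, the most extreme of all libraries. When the length trend was removed in each library, 0 members and 0 of all genes were called for AH_T against AH_C, 65 of 78 members stayed positive, and the median was 0.098, against 0.018 over all genes. The smallest adjusted p was then 0.0682, that of Mrpl17, whose log2 fold change was 0.51. Length was again that of the longest transcript of each gene. For Mrpl17, at 7300 bases, it was close to the whole span of the gene. For some members, such as Mrps26, Mrps17 and Mrpl51, it exceeded the span of the gene in the deposited coordinates. Values of such members with the trend removed may therefore be off. With the trend removed, Mrps21, of 488 bases, was at 0.11 and Mrpl28, of 1068 bases, at 0.29. The age comparisons moved less. With the trend removed, 31 members were higher and 1 lower between controls, with a median of 0.20, against 0.035 over all genes. Between recipients 68 were higher, with a median of 0.36, against 0.057 over all genes. Of the 69 members called between recipients in the main fit, 64 stayed called. The shares of all genes called in the age comparisons of this fit are not given here. What causes the length trend was not tested.

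**Figure D4:**
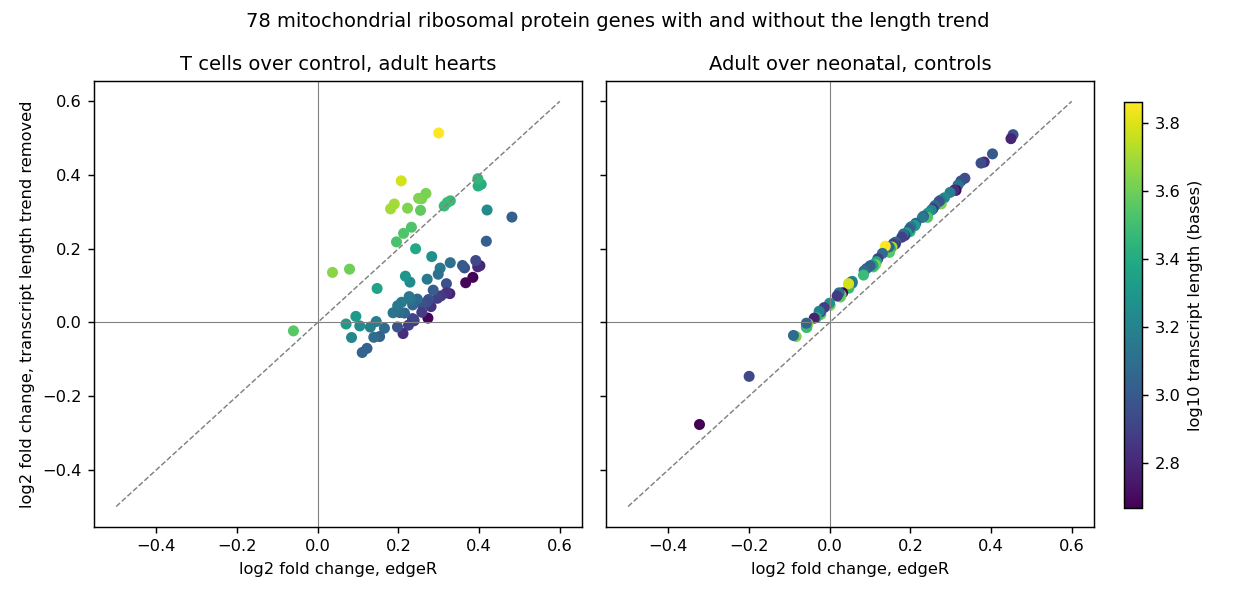
Log2 fold change of the 78 genes as fitted (x axis) and with the transcript length trend removed (y axis), coloured by log10 transcript length, for the T cell difference in adults at left and the age difference in controls at right. At left the short transcripts lie under the dashed line of equality and Mrpl17, the longest, lies above it, while at right the points run just above the line.

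In neonatal hearts no member passed the threshold between recipients and controls, NH_T against NH_C. Of the 78 genes, 21 had a positive log2 fold change and the median was -0.04, against -0.00 over all genes, of which 0% were called by edgeR's quasi-likelihood test. Groups did not overlap for 1 member, which was lower in recipients, beside 0.736% of all genes. At an unadjusted p below 0.05 stood that same member, Mrps31 (1 of 78), with -0.17 ± 0.07 (SE; edgeR adjusted p = 0.999), and 513 of all genes. DESeq2 and limma voom called 0 members. The median turned to 0.0085 without NH_T2 and to 0.0053 without NH_C8. With the length trend removed, 9 of 78 members were positive, the median was -0.063, against -0.019 over all genes, and 0 members were called. Single members lay within -0.17 and 0.07, and the median standard error was 0.085. For Mrpl34 the 95% interval of the neonatal log2 fold change ran between -0.22 and 0.14, and for Mrpl28 between -0.17 and 0.17.

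The difference of both T cell effects, adult minus neonatal, is also the difference of both age effects. It was positive for all 78 members with a median of 0.29, against -0.01 over all genes, but 0 members were called by edgeR's quasi-likelihood test, as were 0% of all genes. The smallest adjusted p among the members was 0.182, and 44 members stood at an unadjusted p below 0.05, beside 2511 of all genes. Values were largest for Mrpl28 (0.48 ± 0.13), Mrpl52 (0.48 ± 0.14) and Mrps24 (0.48 ± 0.14 SE), chosen after their values were seen. DESeq2 called 5 members higher, and the share of all genes that it called is not given here. With the length trend removed, 75 members were positive and the median was 0.17. A larger age difference in recipients than in controls, or a larger T cell effect in adults than in neonates, was therefore not established for single members by edgeR.

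By role, the stalk of the large subunit was represented by Mrpl10, Mrpl11 and Mrpl12. Mrpl10 was higher in adults than in neonates both with T cells (0.47) and without (0.28) and higher after transfer in adults (0.23). Mrpl12 had 293.1, 368.3, 299.3 and 325.5 CPM in AH_T1 to AH_T4, 269.1, 282.3 and 233.0 CPM in AH_C5 to AH_C7, 225.0, 193.5, 213.8 and 258.1 CPM in the 4 NH_T libraries and 238.6, 220.7, 265.2 and 196.9 CPM in NH_C6 to NH_C9. Adult recipients were above every other library, and the log2 fold change was 0.53 against NH_T (edgeR adjusted p = 0.000391) and 0.30 against AH_C, which did not pass the threshold. Mrpl11 was higher in AH_T than in NH_T (0.42) and than in AH_C (0.32), and had 0.08 between controls, which did not pass the threshold. Exons of Mrpl10 and Mrpl12 overlap antisense genes.

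At the end of the tunnel, where the new chain meets the inner membrane, Mrpl23 and Mrpl45 were both higher in AH_T than in NH_T, with log2 fold changes of 0.41 and 0.36. Mrpl23 was also higher in AH_T than in AH_C (0.31), and Mrpl45 had 0.24 there (edgeR adjusted p = 0.0764). Neither passed the threshold between controls, with 0.02 and 0.12. The 3 relatives of bacterial S18 differed. Mrps18a, which sits in the large subunit despite its symbol, rose in all 3 of these comparisons, with 0.34 for AH_C against NH_C, 0.68 for AH_T against NH_T and 0.36 for AH_T against AH_C. Mrps18b and Mrps18c were higher between recipients, with 0.29 and 0.30. They did not pass the threshold between controls, with 0.21 and -0.02, nor for AH_T against AH_C, with 0.12 and 0.23, and some of these values change sign with the processing. The Mrps18c call between recipients was lost without AH_T2, without NH_T2, and with the length trend removed (0.16). With that trend removed, Mrps18b was called between controls (0.27). Mrps18a had 80.4, 90.1, 83.4 and 88.1 CPM in AH_T1 to AH_T4 and 66.0, 64.4 and 69.0 CPM in AH_C5 to AH_C7, above 53.3, 46.4, 53.3 and 60.1 CPM in the 4 NH_T libraries and 57.0, 54.4, 53.9 and 45.4 CPM in NH_C6 to NH_C9, so that the 2 adult groups overlapped neither each other nor the neonates.

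Among members whose mutations in humans affect the heart, Mrpl44 was higher in adults than in neonates with T cells (0.50) and without (0.27), and had 0.21 between adult recipients and controls (edgeR adjusted p = 0.133). Mrpl3, close to the site of peptide bond formation, and Mrps22 passed the threshold in none of these 3 comparisons, with log2 fold changes of -0.02 and -0.09 for AH_C against NH_C, 0.11 and 0.09 for AH_T against NH_T and 0.08 and 0.17 for AH_T against AH_C. Mrps5, whose worm counterpart is known from studies of lifespan, had 0.03, 0.12 and 0.04 and did not pass it either. With the length trend removed, Mrpl3 (0.24) and Mrps5 (0.28) passed it for AH_T against NH_T. That fit took their longest transcripts, of 3972 and 4481 bases, as their lengths. The signs of the values near 0 of Mrpl3, Mrps5 and Mrps22 change with the processing. Mrps16 was higher in AH_T than in NH_T (0.55) and than in AH_C (0.41). Mrps34, which stabilises the small subunit, was higher in adults with T cells (0.68) and without (0.33). Mrps2 was higher with T cells (0.27) and without (0.21), Mrps7 (0.46), Mrps27 (0.33), Mrps35 (0.51) and Mrpl41 (0.40) with T cells. The calls of Mrpl44 and Mrps2 between controls were lost in a fit of those 2 groups alone, and those of Mrps2 and Mrps36 without a filter on low counts. Mrps36, now known as a subunit of the 2-oxoglutarate dehydrogenase complex and not of the ribosome, moved like the rest, with 0.60 for AH_T against NH_T and 0.26 for AH_C against NH_C, both called. Mrpl58 was higher in AH_T than in NH_T (0.41) and than in AH_C (0.40), and had -0.03 between controls.

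Other genes that serve mitochondrial translation were read from lists by function. The 5 ribosomal subunits with other symbols (Dap3, Aurkaip1, Ptcd3, Gadd45gip1 and Chchd1) gave 4 higher members for AH_T against NH_T. For AH_C against NH_C and for AH_T against AH_C edgeR called 0 of them, and 1 and 4 stood at an unadjusted p below 0.05. Of all 16437 genes tested, 6824 and 4491 did so. Of 27 assembly factors, 15 were higher for AH_T against NH_T, 7 for AH_C against NH_C and 1 for AH_T against AH_C, the methyltransferase Mrm2, and 0 were lower. Among them were the GTPase Eral1 (0.49 between recipients, 0.40 between controls) and the small subunit maturation factor Rbfa (0.60 and 0.39). Of 17 translation factors, 9 were higher and 1 lower for AH_T against NH_T, 5 higher and 1 lower for AH_C against NH_C, and 2 higher for AH_T against AH_C. The elongation factor Tufm was higher in all 3 (0.61, 0.27 and 0.33), Oxa1l, which inserts new chains into the membrane, in both age comparisons (0.61 and 0.41), and Guf1, a relative of the bacterial factor LepA, was lower in both (-0.27 and -0.23). Of 20 mitochondrial tRNA synthetases and amidotransferase subunits, 11 were higher and 1, Ears2, lower for AH_T against NH_T, 3 were higher and 2 lower for AH_C against NH_C, and 1 was higher for AH_T against AH_C. Of all genes, 23.8% were higher and 26.9% lower for AH_T against NH_T, 15.6% and 15.4% for AH_C against NH_C, and 3.53% and 5.03% for AH_T against AH_C. The synthetases between controls (15% higher, 10% lower) and the assembly factors between adult recipients and controls (3.7% higher) were thus near or below the share of all genes.

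The nuclear genes of the respiratory chain, whose complexes take up the products of this ribosome, moved further between adult and neonatal hearts. Of 81 genes, 80 were higher for AH_T against NH_T, 66 for AH_C against NH_C and 28 for AH_T against AH_C, with median log2 fold changes of 0.73, 0.36 and 0.32. The 13 mitochondrially encoded genes had medians of 0.45, 0.63 and -0.32, with 8 and 10 higher in the age comparisons and 3 (ND4L, ND4 and ND5) lower for AH_T against AH_C. Of the 13, 3 were positive for AH_T against AH_C. The 76 cytosolic ribosomal protein genes had medians of -0.00, -0.32 and 0.35, with 48 lower for AH_C against NH_C and 47 higher for AH_T against AH_C. Of all genes, 23.8% were higher and 26.9% lower for AH_T against NH_T, 15.6% and 15.4% for AH_C against NH_C, and 3.53% and 5.03% for AH_T against AH_C. With the length trend removed, as given above, no gene of any list was called for AH_T against AH_C. Whether any list differs from another was not tested. Of 10 regulators of mitochondrial gene expression, 1 was higher and 4 lower for AH_T against NH_T, 2 higher and 1 lower for AH_C against NH_C, and 3 lower for AH_T against AH_C. Esrra was higher in both age comparisons (0.58 between recipients, 0.37 between controls), Gabpa, which binds the ETS motif, was lower in AH_T than in AH_C (-0.38) and than in NH_T (-0.33), and Nrf1 passed the threshold in none of the 3, with -0.11, -0.12 and 0.00.

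**Figure D5:**
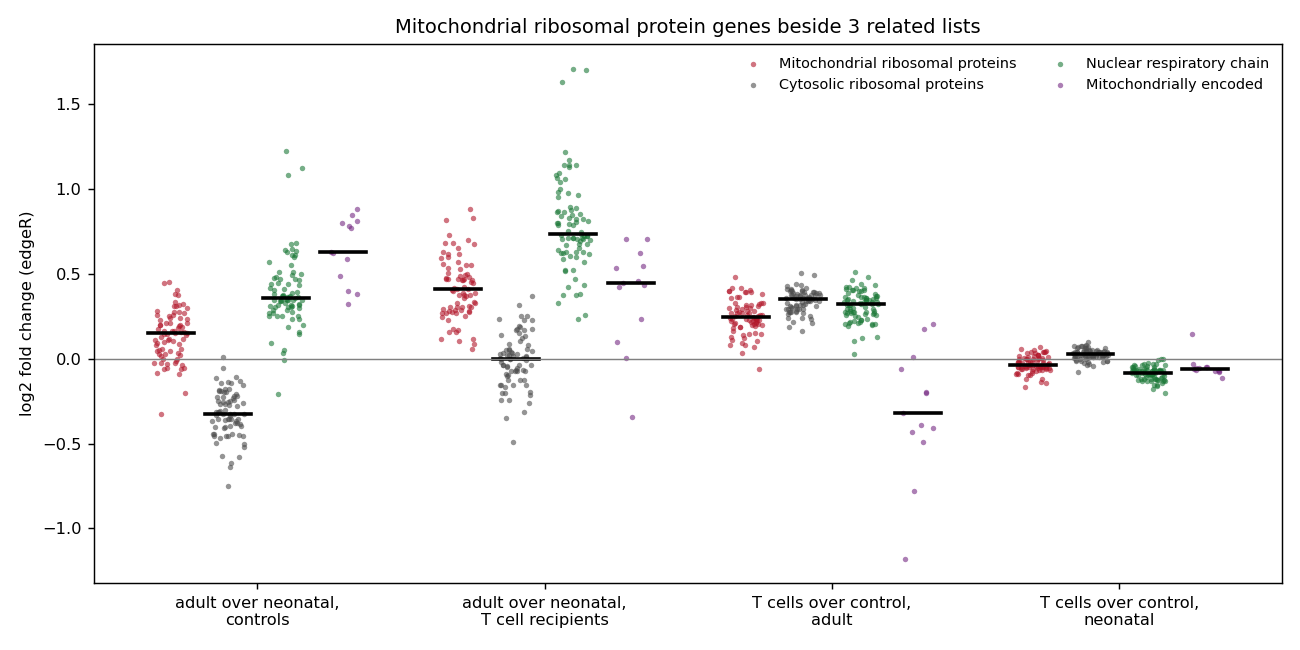
Log2 fold change of each gene (points) and the list's median (bar) for mitochondrial ribosomal, cytosolic ribosomal, nuclear respiratory chain and mitochondrially encoded genes in 4 comparisons. The mitochondrial ribosomal genes have medians of 0.15, 0.41, 0.24 and -0.04 across the comparisons, and the cytosolic ones lie low between controls and high between adult recipients and controls.

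In the genome the 78 genes lie on 17 chromosomes. Head-to-head starts with another protein-coding gene within 1000 bases were found for 21 members (26.9%), against 6.79% of 21936 protein-coding genes. Those 21936 genes include genes that did not pass the filter on low counts, which all members passed. Mrpl46 and Mrps11 start 42 bases apart, Mrps12 starts 136 bases from Sars2, a mitochondrial tRNA synthetase, and Mrpl36 starts 21 bases from Ndufs6, a respiratory chain subunit. Exons of 26 members overlap exons of another gene, on the same strand in 5. Library preparation kept the strand, but the strand setting of the counting is not given in the sources used here, so reads of the other 21 and of their antisense partners cannot be told apart.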

How the data were processed

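RNA was measured in 15 libraries of left ventricles, in 4 groups taken from the sample titles (4, 3, 4 and 4 libraries). Per the labels' protocols, stranded libraries were made by oligo-dT capture. Per the submitters' processing notes, bcl2fastq 2.20.0.422, cutadapt 2.5, STAR 2.7.2b, featureCounts 1.6.4 and DESeq2 1.24.0 were used, with GRCm38.p6. The authors deposited 1 table of unscaled expected counts per gene, in which 61.1% of non-zero values were whole (63.8% of members' values). How reads were split, the feature counted and the strand setting are not given in the sources used here.

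Expected counts were rounded. Genes were kept by filterByExpr (minimum count 10, minimum total 15), scaled by TMM and fitted over all 15 libraries, 1 coefficient per group, with edgeR 4.0.16 (glmQLFit with the robust option, R 4.3.3). Tests were two-sided and adjusted by Benjamini-Hochberg over 16437 genes, with a threshold of 0.05. Log2 CPM used a prior count of 1, and SE is the fold change divided by the root of F. Depth precision is 3 counts per library, which covers counting error only. Alternatives were size factors of the RLE kind, DESeq2 1.42.0, limma voom 3.58.1, no filter, fits of 2 groups, mitochondrially encoded genes left out, a length trend removed (natural spline, 5 degrees of freedom), a replicate block and each library left out. The code was tested on simulated data.

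Named members were up to 12 called rises and falls per comparison with at least 5 CPM in the higher group, members fixed by role, the 5 highest and lowest per kb and the 4 farthest from the median on each side in AH_C against NH_C. The members and all lists were chosen with earlier results of these data known.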

Additional observations from a re-analysis of the deposited data

Results flagged for a closer look

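In 5 of 135 combinations of a named member and a group of 4 libraries, 1 library stood far from the other 3 by Dixon's criterion. Chance gives about 1 in 20 such cases. Mrpl15 had 81.3 CPM in AH_T2, while AH_T1, AH_T3 and AH_T4 had 64.9, 64.5 and 64.7 CPM. Mrps5 had 50.1 CPM in AH_T2, against 40.8, 41.4 and 40.9 CPM in the others. Mrps18c had 46.8 CPM in AH_T2, against 35.5, 34.9 and 35.8 CPM. AH_T2 was also the highest library for most members. Mrpl10 was lowest in AH_T1, with 88.4 CPM against 93.6, 92.7 and 92.9 CPM in AH_T2 to AH_T4. Mrpl1 was highest in NH_C8, with 35.0 CPM against 27.6, 27.8 and 28.6 CPM in NH_C6, NH_C7 and NH_C9.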

How the results depend on the processing

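Counts of called members are by edgeR's quasi-likelihood test, except where another tool is named. DESeq2 called 41 members higher for AH_T against AH_C and 5 for the difference of T cell effects. The shares of all genes that DESeq2 called are not given here, and edgeR's shares do not apply to these counts. With the length trend removed, 31 were higher for AH_C against NH_C and 0 for AH_T against AH_C, whose median was 0.098. The median of the difference was then 0.166. The share of all genes called between controls in that fit is not given here. When single libraries were left out, the members called higher for AH_C against NH_C ranged between 10 and 29 and those called lower between 0 and 1. Those higher for AH_T against AH_C ranged between 0 and 36. The shares of all genes called in these fits are not given here, so a shift of the whole table cannot be told apart. The median of NH_T against NH_C ranged between -0.076 and 0.0085. The cause of these shifts was not tested.

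Values of uncalled members near 0 changed sign. For AH_C against NH_C, Mrps27 was at 0.0048 with RLE factors, 0.0045 with DESeq2, 0.00164 with limma voom, 0.0060 without mitochondrially encoded genes and 0.052 with the length trend removed. That removal also gave 0.028 for Mrps18c, 0.021 for Mrpl3 and 0.013 for Mrpl58 there, -0.0015 for Mrps22 and -0.067 for Mrpl52 in AH_T against NH_T, and -0.016 for Mrps22 and -0.071 for Mrps18b in AH_T against AH_C. Leaving out single libraries moved AH_C against NH_C between -0.053 and 0.035 for Mrps18c, -0.051 and 0.075 for Mrpl23, -0.089 and 0.060 for Mrpl3 and -0.044 and 0.049 for Mrps27. It moved Mrps22 between -0.0022 and 0.15 in AH_T against NH_T, and, in AH_T against AH_C, Mrps5 between -0.041 and 0.063, Mrpl1 between -0.15 and 0.024 and Mrpl3 between -0.0039 and 0.15.

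Groups share some replicate numbers, and the labels do not say what a shared number means. Deviations of same-numbered libraries had correlations of 0.144 for controls, and 0.0345, 0.139 and -0.0057 for recipients. In controls 2 numbers are shared and both gave the same value. So few correlations cannot exclude a shared batch. A replicate block, with 2 libraries a group in controls, gave 6 members higher for AH_C against NH_C and values of 0.027 for Mrps22, 0.064 for Mrps18c and -0.042 for Mrpl23. In recipients the block gave 68 higher members. The shares of all genes called with the block are not given here.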

Other observations

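Of 13 genes that maintain and transcribe mitochondrial DNA, 6 (46.2%) were higher for AH_T against NH_T, 2 (15.4%) for AH_C against NH_C and 0 for AH_T against AH_C, with 0 lower, by edgeR's quasi-likelihood test. Of all genes, 23.8% and 15.6% were higher in the age comparisons, so the share between controls was that of all genes. Polrmt, the mitochondrial RNA polymerase, had log2 fold changes of 0.67 between recipients and 0.46 between controls, both called. Mterf2 was also higher in both, with 0.28 and 0.42, while Tfam, which packs mitochondrial DNA, had 0.11 and -0.02 and passed neither. At an unadjusted p below 0.05 stood 0 of the 13 for AH_T against AH_C, beside 4491 of all 16437 genes tested.

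Of 15 general markers of mitochondrial content, 9 were higher (60%) and 1 lower for AH_T against NH_T, and 3 higher (20%) and 1 lower for AH_C against NH_C. Shares of all genes were 23.8% higher and 26.9% lower between recipients, and 15.6% and 15.4% between controls. The 20% between controls was thus near the share of all genes. For AH_T against AH_C 0 were called, 7 stood at an unadjusted p below 0.05, beside 4491 of all 16437 genes tested, and the median log2 fold change was 0.17. Lars2, the mitochondrial leucyl-tRNA synthetase, had the largest value among the 20 synthetases and amidotransferase subunits for AH_T against NH_T, 0.91, and Ears2 the lowest, -0.46. Among regulators, Myc was lower in both age comparisons, with -0.87 between recipients and -0.60 between controls. Ppargc1b was higher in AH_C than in NH_C (0.34) and lower in AH_T than in AH_C (-0.41), and these 2 comparisons share AH_C.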
